A study of Callithrix jacchus with 39 samples.

Results

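The change between the inner cell mass (ICM) of the hatched blastocyst and the postimplantation epiblast was examined in the common marmoset, Callithrix jacchus, a New World monkey. It rests on 6 of the 39 libraries of the series, namely all 3 titled Epiblast and all 3 titled HatchedBlastocyst, chosen by title and compared across all genes. The epiblast libraries hold poly(A)+ RNA of the epiblast of embryos after implantation, and the hatched ICM libraries that of the ICM of blastocysts that had left the zona pellucida. The labels name no embryonic day, sex, strain or treatment, and do not say how the tissue was isolated or how many embryos a library holds. Nor do they say that the libraries within a group are from different embryos, and p-values therefore measure how far these libraries differ, which can be technical. The morula and 5 blastocyst ICM stages, with 3 libraries each, shared the estimate of spread. Embryonic stem cells (ESCs) labelled primed served as a comparison grown in culture, outside the embryo, and whether the cultures held differentiated cells was not tested. They were 6 libraries titled DSY127 and No.40, and another 6 carried Tg in their titles (DSY-c2 and N40), a term the labels do not define.

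The ICM of a mammalian blastocyst holds the preimplantation epiblast, from which the body arises, and the hypoblast, which gives rise to the endoderm of the yolk sac. Preimplantation epiblast cells carry a set of transcription factors known as the naive network, with members of the KLF family among them. After implantation the epiblast becomes a polarised epithelium, takes up DNA methylation and gains the ability to form the germ layers. Around it lie yolk sac endoderm, amnion, trophoblast and, early in primates, extraembryonic mesenchyme, so a sample of epiblast can hold RNA of these tissues as well.

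Total counts were 51.1 to 52.9 M (mega, 1e6) in the epiblast libraries and 52.1 to 53 M in the hatched ICM libraries, and 15042 to 15076 genes against 13292 to 14498 genes had at least 10 counts. Levels are given as CPM (counts per 1e6 counts, on a library size scaled by TMM). Across genes, the epiblast libraries correlated with each other at r of 0.946 to 0.947 and the hatched ICM libraries at 0.875 to 0.895. With epiblast, hatched ICM library 2 correlated at 0.775 to 0.778 and libraries 1 and 3 at 0.714 to 0.721. Hatched ICM library 1 stood apart from libraries 2 and 3 in some genes. It had 158 CPM of NANOG, a pluripotency factor, against 1505 and 1164 CPM in libraries 2 and 3, and 0.744 CPM of KLF17 against 105 and 89.7 CPM. The 16 preimplantation epiblast genes described below did not follow as a group. They summed to 4792 CPM in library 1, against 4039 and 7852 CPM in libraries 2 and 3. Library 1 also held 1320 CPM of CGB, a subunit of chorionic gonadotropin made by trophoblast, against 0.0728 and 0.502 CPM, and 2805 CPM of APOA1, an apolipoprotein of yolk sac endoderm, against 182 and 62.7 CPM. Counts over all genes, and calls that ended without this library, are given with and without it.

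Of 16929 genes tested with the quasi-likelihood method of edgeR, 1222 (7.22%) were higher and 2150 (12.7%) were lower in epiblast than in hatched ICM, 19.9% in all, with p adjusted by Benjamini-Hochberg and a threshold of 0.05. The 3 epiblast libraries lay above the 3 hatched ICM libraries for 29.5% of all genes tested and below them for 24.5%. The median log2 fold change of all genes tested was 0.06. A change of at least 2-fold was found for 1170 of the higher and 2061 of the lower genes. For 1021 of the higher genes the 3 epiblast libraries lay above all 15 ICM libraries of the 5 blastocyst stages, as they did for 2938 of all genes tested (17.4%), and 1726 of the lower genes lay below all 15, as did 2237 of all genes (13.2%). With the size factors of DESeq2 in place of TMM, the median of all genes moved to 0.26, and 1501 genes were higher and 1792 lower, so that 45.6% of the genes called were higher, against 36.2% with TMM. Leaving out hatched ICM library 1 left 677 higher and 1556 lower genes. Over the 6 fits that each left out 1 library, the counts were 562 to 777 higher and 1317 to 2107 lower genes. In bulk RNA, fewer cells of a type and less RNA per cell cannot be told apart. Genes without a symbol could not be named, and 986 of the higher and 1316 of the lower genes had a symbol.

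The genes of the preimplantation epiblast were lower after implantation nearly as a group. Of 20 listed genes, 16 were tested, and 12 fell, 1 rose and 3 did not pass the test. Among all genes tested, 12.7% fell and 7.22% rose. The median log2 fold change of the 16 was -4.62, and 11 lay below all 15 ICM libraries, against 13.2% of all genes. The 12 falls held in each fit that left out 1 library, and 10 of them, all but KLF17 and TFCP2L1, in a fit to the 6 libraries alone (adjusted p = 0.0606 and 0.0534). KLF4 (ENSCJAG00000016955), a zinc finger transcription factor of the naive network, had 27.3, 19.7 and 25.5 CPM in epiblast libraries 1 to 3, against 501, 359 and 771 CPM in hatched ICM libraries 1 to 3. The groups were far apart, and the lowest of the 15 ICM libraries had 293 CPM. It fell by 4.49 ± 0.41 on the log2 scale (SE, adjusted p = 4.07e-06). KLF5, a related factor, averaged 14.7 ± 5.87 CPM in epiblast and 389 ± 83.6 CPM in hatched ICM (SD, n = 3 each), a fall by 4.72 ± 0.48 on the log2 scale (adjusted p = 9.84e-06).

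DPPA5 (ENSCJAG00000009945), an RNA-binding protein of pluripotent cells, had 10.6, 9.5 and 7.27 CPM in epiblast, against 283, 188 and 560 CPM in hatched ICM. All epiblast libraries were low and the change was -5.24 ± 0.44 (adjusted p = 2.55e-06). NLRP7, known from oocytes and early embryos, had 31, 41.7 and 33.5 CPM in epiblast, against 834, 824 and 1446 CPM in hatched ICM. KHDC3L, a partner of NLRP7 in the oocyte, had 21.7, 12.6 and 14.1 CPM in epiblast, against 339, 385 and 1461 CPM in hatched ICM. The growth factor GDF3, a ligand of the NODAL pathway, had 49.7, 51.4 and 39 CPM in epiblast, against 906, 972 and 1305 CPM in hatched ICM. In these 3 genes too, every epiblast library lay well below every hatched ICM library, and the log2 changes were -4.87, -5.5 and -4.51 with adjusted p-values of 6.83e-07, 1.24e-05 and 4.07e-06.

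The orphan nuclear receptor ESRRB had 0, 0.146 and 0.603 CPM in epiblast, against 9.01, 5.08 and 17.2 CPM in hatched ICM (log2 change -5.37 ± 0.93, adjusted p = 0.000581). TFCP2L1, another naive factor, had 1.51, 0 and 0.0355 CPM in epiblast, against 31.1, 11.1 and 23.9 CPM in hatched ICM (log2 change -5.41 ± 1.29, adjusted p = 0.00663). KLF17, a factor of primate naive cells, had 1.98, 0.0365 and 2.29 CPM in epiblast, against 0.744, 105 and 89.7 CPM in hatched ICM. Here the groups overlapped because of hatched ICM library 1, and the log2 change of -5.5 ± 1.44 had an adjusted p of 0.0123. TBX3, TFAP2C and DPPA2 were the other falls, with log2 changes of -3.37, -2.88 and -2.45. NODAL, ARGFX and BCL6 did not pass the test. IL6ST, the receptor subunit shared by LIF and related cytokines, ran the other way, with 134, 123 and 127 CPM in epiblast, against 16.5, 19 and 9.4 CPM in hatched ICM. Its adjusted p of 0.0459 did not hold when any of the 6 libraries was left out, where it reached 0.137.

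**Figure D1:**
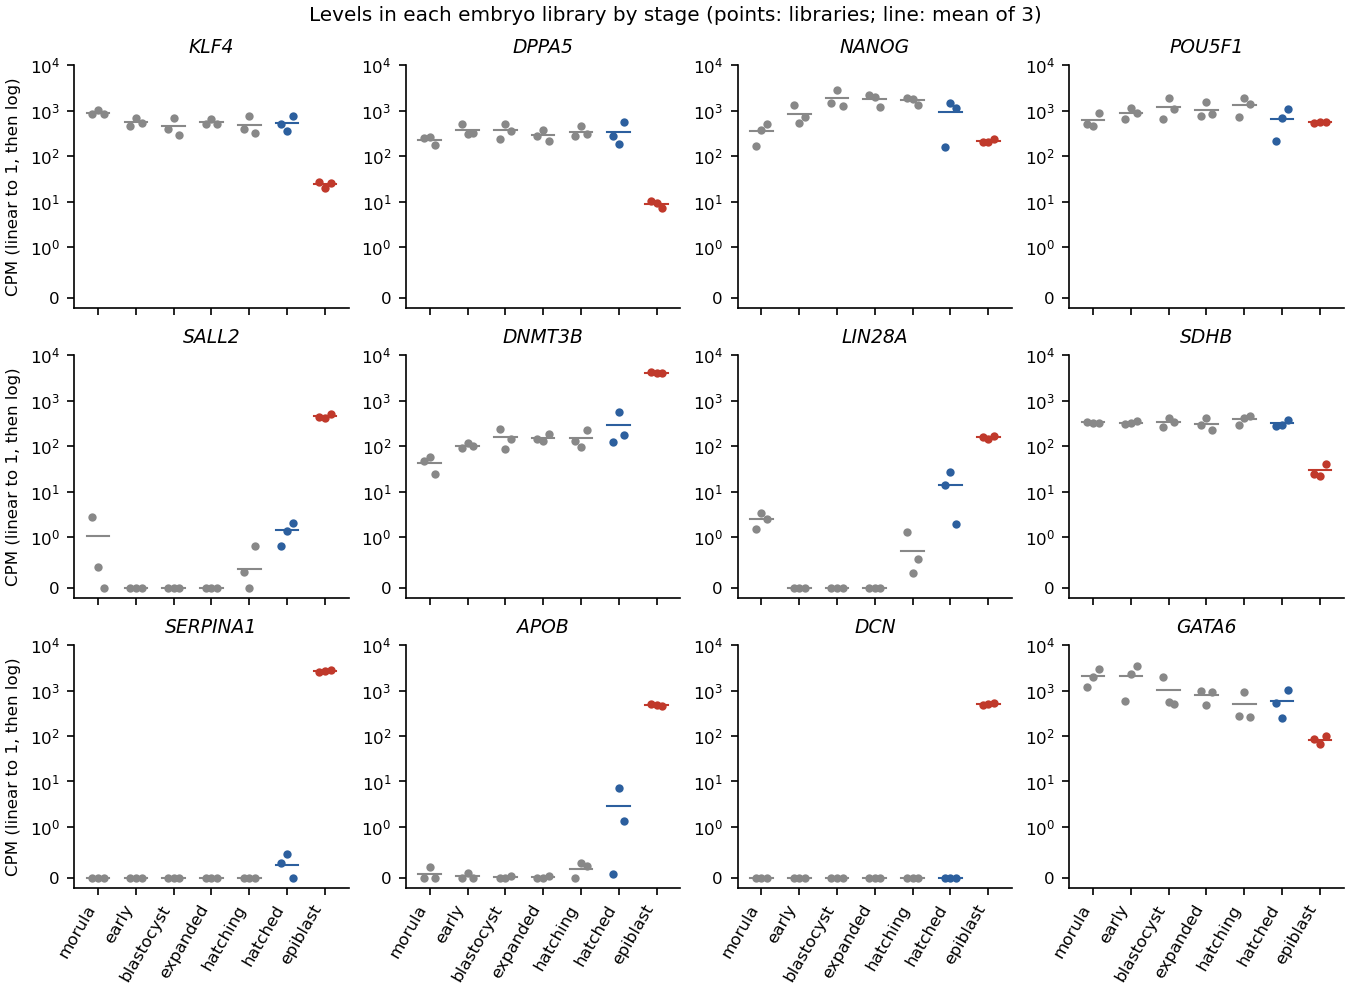
Level (CPM, linear to 1 and logarithmic above) of 12 genes in each of the 21 embryo libraries, by stage from the morula through 5 blastocyst ICM stages to the epiblast, where points are libraries, lines are means of 3, hatched ICM is blue and epiblast is red. KLF4, DPPA5 and SDHB lie lower in epiblast than in every ICM library, SALL2, DNMT3B, LIN28A, SERPINA1, APOB and DCN lie higher, and POU5F1 overlaps.

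The core pluripotency genes did not move as a group. Of 9 tested genes of 13 listed, 3 rose, 2 fell and 4 did not pass the test. Among all genes tested, 7.22% rose and 12.7% fell. POU5F1 (ENSCJAG00000019789), needed by pluripotent cells of either state, had 539, 553 and 570 CPM in epiblast, against 216, 704 and 1087 CPM in hatched ICM. The epiblast values lay inside the range of the hatched ICM libraries, and the log2 difference was -0.27 ± 0.5 (adjusted p = 0.737). NANOG had 203, 200 and 235 CPM in epiblast, against 158, 1505 and 1164 CPM in hatched ICM. Hatched ICM library 1 lay below the epiblast libraries and libraries 2 and 3 lay above them. The fall by 2.15 ± 0.6 on the log2 scale had an adjusted p of 0.018, and of the fits that left out 1 library it held only in that without hatched ICM library 1, with adjusted p-values of up to 0.0771. SOX2, the partner of POU5F1, had 69.9, 69 and 60.1 CPM in epiblast, against 4.09, 21.3 and 24.9 CPM in hatched ICM. Its rise of 1.98 ± 0.61 (adjusted p = 0.0291) held only without hatched ICM library 3 and otherwise reached adjusted p-values of up to 0.0807. In a fit to the 6 libraries alone, neither NANOG nor SOX2 passed (adjusted p = 0.0539 and 0.0543).

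LIN28A, an RNA-binding protein that blocks let-7 processing, had 158, 146 and 164 CPM in epiblast, against 13.7, 26.8 and 1.92 CPM in hatched ICM. ZSCAN10, a zinc finger factor of pluripotent cells, had 421, 367 and 370 CPM in epiblast, against 10.2, 35.2 and 33.1 CPM in hatched ICM. Both lay apart from hatched ICM and rose by 3.47 ± 0.85 and 3.88 ± 0.55 on the log2 scale (adjusted p = 0.0147 and 0.000112). UTF1, a chromatin factor of pluripotent cells, had 75.3, 66.1 and 75.3 CPM in epiblast, against 244, 524 and 1221 CPM in hatched ICM, and fell by 3.2 ± 0.57 (adjusted p = 0.000774). These 3 calls held in each fit that left out 1 library. SALL4, LIN28B and PRDM14 were the other genes that did not pass.

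The genes of the postimplantation epiblast that passed the test were all rises. Of 22 listed genes, 13 were tested, and 4 rose, none fell and 9 did not pass. Over all genes tested, 7.22% rose. The median log2 fold change of the list was 3.03, and 11 of the 13 lay above all 15 ICM libraries, against 17.4% of all genes. Their summed level was 3267, 3211 and 3506 CPM in epiblast libraries 1 to 3, against 248, 546 and 193 CPM in hatched ICM libraries 1 to 3. SALL2 (ENSCJAG00000008855), a zinc finger factor, had 444, 422 and 516 CPM in epiblast, against 0.826, 1.38 and 2.01 CPM in hatched ICM. It rose by 8.35 ± 1.65 on the log2 scale (adjusted p = 0.00443). CYTL1, a secreted cytokine-like protein, had 281, 270 and 324 CPM in epiblast, against 0.909, 0 and 0 CPM in hatched ICM (log2 change 9.92 ± 2.25, adjusted p = 0.0138). Both calls held in each fit that left out 1 library, and that of CYTL1 was lost with DESeq2 as the test (adjusted p = 0.152).

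OTX2, a homeobox factor of the postimplantation epiblast and the anterior embryo, had 67.9, 83.3 and 74.7 CPM in epiblast, against 4.71, 7.67 and 27.6 CPM in hatched ICM. Its rise of 2.5 ± 0.65 (adjusted p = 0.0123) was lost without hatched ICM library 2 (adjusted p = 0.0651). SFRP2, a secreted WNT antagonist, had 1368, 1303 and 1432 CPM in epiblast, against 0.95, 289 and 0 CPM in hatched ICM. The single high hatched ICM library was number 2, and with a log2 difference of 3.82 ± 2.17 SFRP2 did not pass (adjusted p = 0.229). ZIC2, at 215 ± 10.4 CPM in epiblast and 21.8 ± 17.8 CPM in hatched ICM (SD, n = 3 each), did not pass either (adjusted p = 0.0817).

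Among DNA methylation genes, the rise that held in each fit without 1 library was that of DNMT3B (ENSCJAG00000015617), a de novo DNA methyltransferase. It had 4157, 4085 and 4058 CPM in epiblast, against 121, 576 and 178 CPM in hatched ICM. The 3 epiblast libraries were close together and far above the highest of the 15 ICM libraries, and the log2 change was 3.81 ± 0.54 (adjusted p = 0.000114). Of 7 tested genes of 9 listed, 4 rose and 3 did not pass, while 7.22% of all genes tested rose. Above all 15 ICM libraries lay 6 of the 7, against 17.4% of all genes. DNMT1, the maintenance methyltransferase, rose by 1.59 ± 0.52, and the TET dioxygenases TET1 and TET3, which oxidise methylcytosine, rose by 1.75 ± 0.58 and 2.54 ± 0.72 (adjusted p = 0.0386, 0.0404 and 0.019). Of these, DNMT1 kept its call only without hatched ICM library 3, TET1 lost it without any of the 6 libraries and TET3 lost it without hatched ICM library 2 or 3, with adjusted p-values of up to 0.123, 0.129 and 0.0786. DNMT3A, the other de novo enzyme, had 281, 276 and 269 CPM in epiblast, against 76, 182 and 88.5 CPM in hatched ICM, and did not pass (adjusted p = 0.0689).

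In the FGF pathway, FGFR1 and FGFR2 rose and the other 8 of 10 tested genes of 17 listed did not pass. The share called was close to the 19.9% of all genes called in either direction, while 7.22% of all genes rose. FGFR1 had 1026, 953 and 911 CPM in epiblast, against 497, 173 and 208 CPM in hatched ICM, and FGFR2 had 204, 210 and 180 CPM in epiblast, against 12.3, 17.5 and 47 CPM in hatched ICM. Their log2 changes were 1.72 ± 0.37 and 2.95 ± 0.67 (adjusted p = 0.00322 and 0.00498), and both held without any 1 library. Of the other receptors, FGFR3 had a log2 difference of -1.38 ± 0.64 (adjusted p = 0.139) and FGFR4 one of -0.08 ± 0.40 (adjusted p = 0.907). ETV5, a target of FGF signalling, did not pass, with 65 ± 11.9 CPM in epiblast and 29.3 ± 23 CPM in hatched ICM (SD, n = 3 each).

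In the NODAL pathway, 1 of 10 tested genes of 14 listed rose and 2 fell. These counts were close to the shares of all genes tested, of which 7.22% rose and 12.7% fell. CER1, a secreted antagonist of NODAL that marks anterior endoderm in mouse embryos, had 46.5, 41.2 and 44.7 CPM in epiblast and no count in any of the 15 ICM libraries. Taking 3 counts over the hatched ICM group as the floor (0.0191 CPM), it was at least 2310-fold higher in epiblast (adjusted p = 0.00267). GDF3 fell, as above, and so did the activin receptor ACVR1B, with 7.86, 8.95 and 16 CPM in epiblast, against 53.6, 45 and 144 CPM in hatched ICM (log2 change -2.89 ± 0.53, adjusted p = 0.000923). NODAL itself did not pass, with 124, 106 and 124 CPM in epiblast, against 39.7, 414 and 172 CPM in hatched ICM. Of the BMP genes, 5 of 15 listed were tested, and with edgeR 0 passed, 0 had an unadjusted p under 0.05, and DESeq2 called 1 higher. While 17.4% of all genes lay above all 15 ICM libraries, 6 of the 15 tested WNT genes did, of 21 listed. The WNT genes had a median log2 fold change of 2.04, and DESeq2 called 4 higher and 1 lower. Their summed level was 1682, 1653 and 1748 CPM in epiblast, against 317, 446 and 123 CPM in hatched ICM. With edgeR only WNT3A passed, as a fall, with 0.527, 1.61 and 0.372 CPM in epiblast, against 17.9, 4.75 and 5.88 CPM in hatched ICM. Its adjusted p of 0.0382 held only without hatched ICM library 2 and otherwise reached 0.154.

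Nuclear genes of the respiratory chain were lower nearly throughout. Of 19 tested genes of 30 listed, 16 fell and 3 did not pass, while 12.7% of all genes tested fell. The median log2 fold change of the list was -1.96. While 13.2% of all genes lay below all 15 ICM libraries, 18 of these 19 did. Their summed level was 1558, 1615 and 1596 CPM in epiblast, against 4534, 3799 and 6015 CPM in hatched ICM. Primed ESCs lay in between, with medians of 2142 to 2567 CPM in the 4 groups of lines. SDHB (ENSCJAG00000007927), the iron-sulphur subunit of complex II, had 24.7, 22 and 41.3 CPM in epiblast, against 283, 291 and 383 CPM in hatched ICM. It fell by 3.44 ± 0.29 on the log2 scale (adjusted p = 2.64e-06). NDUFB3 of complex I had 2, 2.92 and 3.44 CPM in epiblast, against 59.2, 19.8 and 34.7 CPM in hatched ICM (log2 change -3.76 ± 0.47, adjusted p = 4.37e-05). UQCRFS1 of complex III, COX5B of complex IV and ATP5F1C of ATP synthase fell by 2.33, 3.09 and 1.94 on the log2 scale. The calls of NDUFA9, SDHC and UQCRC1 were each lost in at least 1 fit without a library, with adjusted p-values of up to 0.0898, 0.21 and 0.059. The other 13 held throughout. NDUFS1 and SDHA, with log2 differences of -0.1 and -0.48, were among those that did not pass. Ribosomal protein genes, a family chosen after its values were seen, lay lower in the same libraries. The 45 genes of cytosolic ribosomal proteins summed to 10980, 11000 and 11660 CPM in epiblast, against 54970, 29670 and 75550 CPM in hatched ICM, and 44 of them fell. The part of this difference in the falls of the respiratory chain was not tested.

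**Figure D2:**
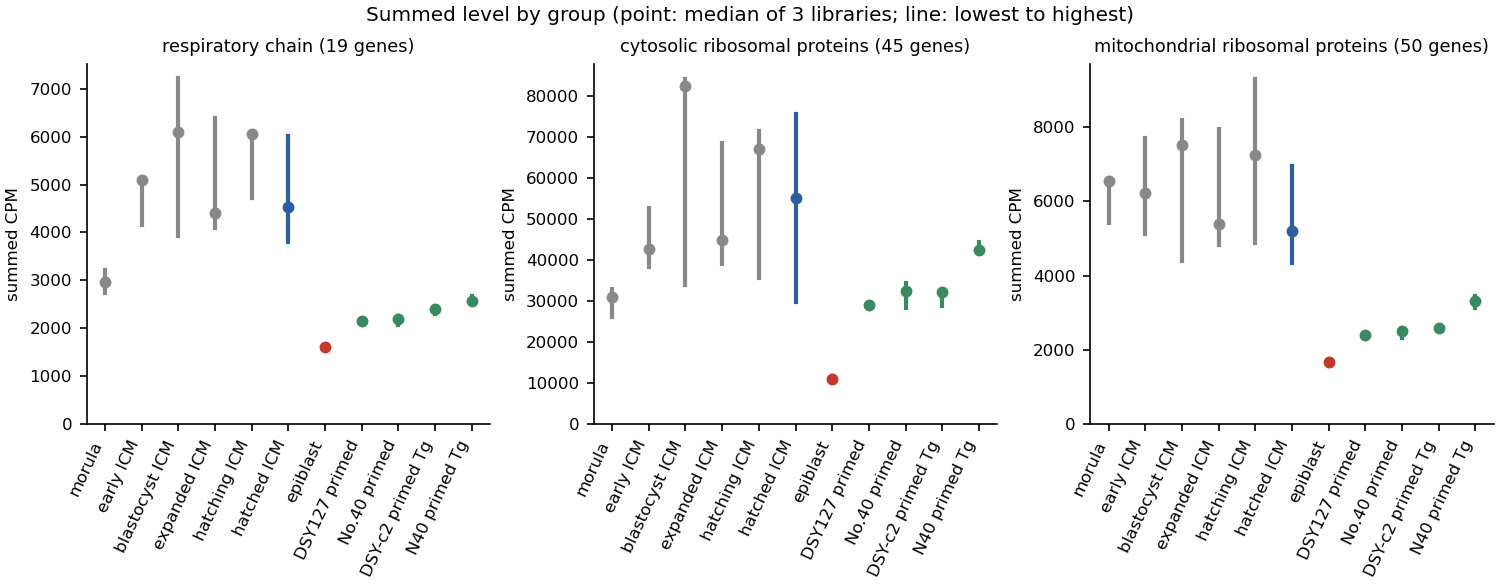
Summed CPM of respiratory chain (19), cytosolic ribosomal protein (45) and mitochondrial ribosomal protein (50) genes in 7 embryo stages and 4 groups of primed ESCs, where points are medians and lines run from the lowest to the highest of 3 libraries. Epiblast (red) lies lowest in each panel, and hatched ICM (blue) varies widely between libraries.

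Glycolysis genes that passed the test were mostly rises. Of 16 tested genes of 21 listed, 4 rose, 1 fell and 11 did not pass. Over all genes tested, 7.22% rose and 12.7% fell. In epiblast 9 of the 16 lay above all 15 ICM libraries and 1 lay below, against 17.4% and 13.2% of all genes. The list summed to 8651, 8689 and 8747 CPM in epiblast, against 7307, 5329 and 5456 CPM in hatched ICM. PKM, pyruvate kinase, had 1584, 1618 and 1545 CPM in epiblast, against 254.5, 397.5 and 474 CPM in hatched ICM. PFKP, the platelet-type phosphofructokinase, had 428.5, 430 and 430 CPM in epiblast, against 95.4, 114 and 114 CPM in hatched ICM. Both lay apart from hatched ICM and rose by 2.08 ± 0.36 and 1.99 ± 0.48 on the log2 scale (adjusted p = 0.000637 and 0.00724). The hexokinases HK1, higher, and HK2, lower, both passed, with 257, 237 and 203 CPM of HK1 in epiblast, against 75.2, 138 and 55.1 CPM in hatched ICM, and 156, 164 and 167 CPM of HK2 in epiblast, against 535, 439 and 609 CPM in hatched ICM. The adjusted p-values of 0.0221 and 0.0401 did not hold in each fit without a library. HK1 lost its call without hatched ICM library 1 or 3 or epiblast library 1 (up to 0.0766) and HK2 without any library but hatched ICM library 2 (up to 0.13). ENO2, with 133, 90.8 and 136 CPM in epiblast, against 0.909, 0.0364 and 0 CPM in hatched ICM, kept its call (adjusted p = 0.0231) without hatched ICM library 1 or epiblast library 2 alone and otherwise reached 0.0732. GAPDH, ALDOA and TPI1 did not pass.

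Cholesterol synthesis genes leaned lower than in hatched ICM. Of 15 tested genes of 18 listed, 5 fell, 1 rose and 9 did not pass. Among all genes tested, 12.7% fell and 7.22% rose. The list summed to 2395, 2350 and 2340 CPM in epiblast, against 5643, 4098 and 2623 CPM in hatched ICM. Medians of the earlier ICM stages ran from 2171 to 2372 CPM, near the epiblast level. Only 2 of the genes lay below all 15 ICM libraries, near the 13.2% of all genes. Without hatched ICM library 1, 2 falls were left. FDPS, which makes farnesyl pyrophosphate, had 78.3, 78 and 74.1 CPM in epiblast, against 648, 233 and 378 CPM in hatched ICM (log2 change -2.45 ± 0.41, adjusted p = 0.000466). MVD, an enzyme of the mevalonate steps, fell by 1.55 ± 0.34 (adjusted p = 0.00381). The calls of MVK, FDFT1 and INSIG1 were lost without hatched ICM library 1 and without each epiblast library in turn, and those of MVK and FDFT1 also without hatched ICM library 3, with adjusted p-values of up to 0.162, 0.28 and 0.145.

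Among 17 tested cell cycle genes of 22 listed, 6 rose and 3 fell, against 7.22% and 12.7% of all genes tested. MKI67, a marker of cycling cells, had 372, 466 and 397 CPM in epiblast, against 69.1, 39.4 and 114 CPM in hatched ICM (log2 change 2.47 ± 0.5, adjusted p = 0.00194). CCND2, a D-type cyclin, had 39.9, 36.2 and 53.6 CPM in epiblast, against 0.289, 0.255 and 0 CPM in hatched ICM, and rose by 7.88 ± 1.72 (adjusted p = 0.00579). CCND3, another D-type cyclin, had 74.4, 74.5 and 65.4 CPM in epiblast, against 758, 268 and 579 CPM in hatched ICM, and fell by 2.9 ± 0.35 (adjusted p = 3.27e-05). D-type cyclins thus changed in opposite directions. TOP2A, MCM2 and the CDK inhibitor CDKN1B rose by 1.58, 1.13 and 2.49 on the log2 scale, and CCNB1 fell by 1.41. The calls of CDK1, lower, and CDK2, higher, were lost when any of the 6 libraries was left out (adjusted p of up to 0.148 and 0.124).

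Of 13 tested epithelial genes of 16 listed, 5 rose and 2 fell, against 7.22% and 12.7% of all genes tested. CDH1, the epithelial cadherin, had 605, 568 and 617 CPM in epiblast, against 170, 223 and 150 CPM in hatched ICM (log2 change 1.72 ± 0.34, adjusted p = 0.00184). TJP1, a scaffold of tight junctions, rose by 2.37 ± 0.47 (adjusted p = 0.00188). EPCAM had 758.5, 708 and 791 CPM in epiblast, against 1488, 1656 and 1837 CPM in hatched ICM, and fell by 1.14 ± 0.26 (adjusted p = 0.00454). These 3 calls held in each fit that left out 1 library, and those of OCLN, ESRP1 and CLDN7 did not, with adjusted p-values of up to 0.131, 0.0769 and 0.111.

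**Figure D3:**
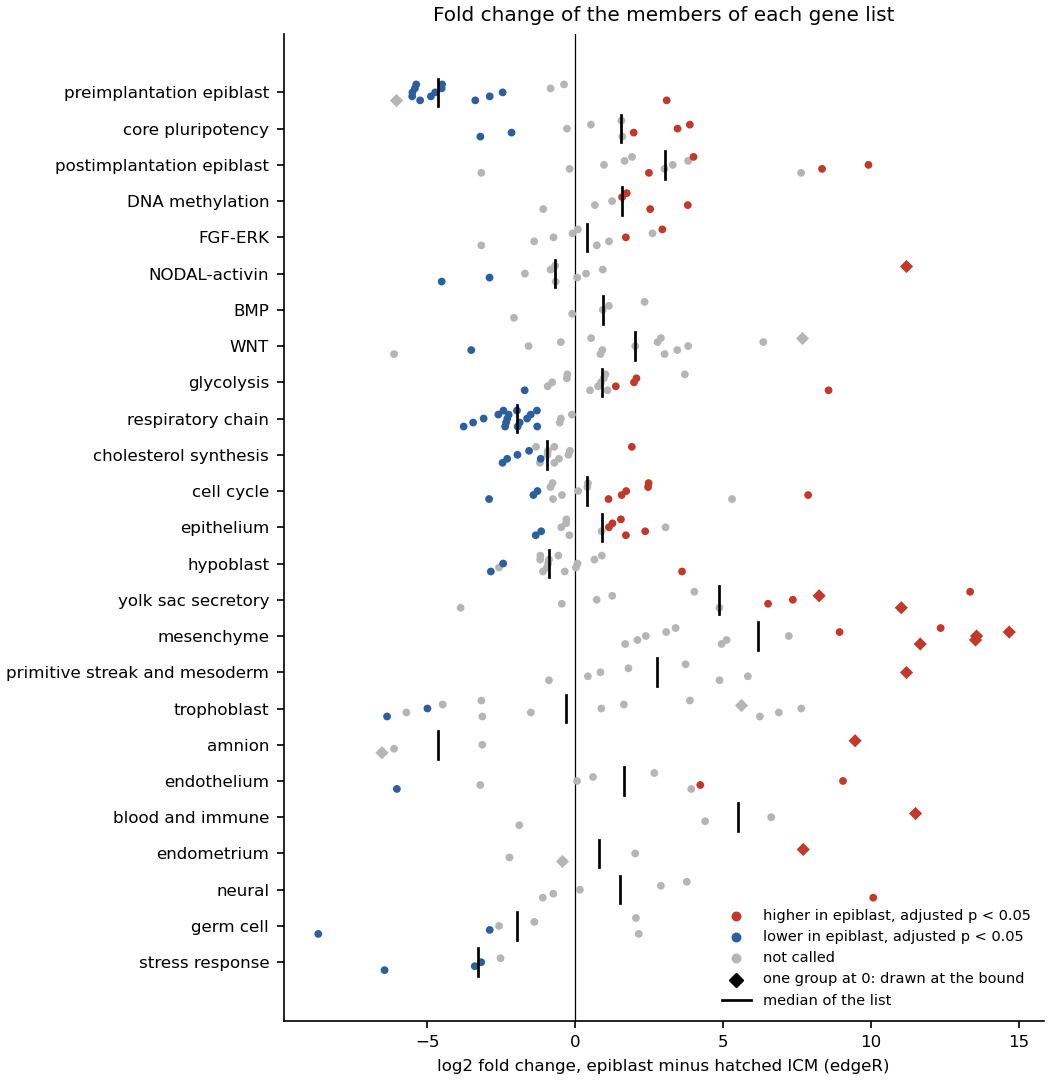
Log2 fold change (epiblast minus hatched ICM, edgeR) of each tested member of 25 gene lists, where red and blue points passed an adjusted p under 0.05, grey points did not, diamonds are genes with no count in 1 group drawn at their bound, and bars are list medians. Preimplantation epiblast (median -4.62) and respiratory chain (-1.96) genes lie left of 0, and mesenchyme (6.17), yolk sac secretory (4.88) and postimplantation epiblast (3.03) genes lie right of it.

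The collected tissue was then described by lists of markers of the cell types that lie next to the epiblast. Genes of the hypoblast were not higher as a group. Among all genes tested, 7.22% rose and 12.7% fell. All 16 listed genes with a symbol, of 22 listed, were tested. Of these, 1 rose, 2 fell and 13 did not pass, near those shares, with a median log2 fold change of -0.89. Their summed level was 5871, 5884 and 5709 CPM in epiblast, against 13430, 5340 and 5748 CPM in hatched ICM, so that only hatched ICM library 1 stood above. GATA6, a transcription factor that specifies hypoblast, had 84.7, 67.9 and 98.3 CPM in epiblast, against 532, 243 and 1027 CPM in hatched ICM. It fell by 2.84 ± 0.73 (adjusted p = 0.0108), a call that was lost without hatched ICM library 3 or epiblast library 1 or 2 (adjusted p of up to 0.0743). LAMC1, a laminin chain of basement membranes, had 183, 192 and 179 CPM in epiblast, against 1875, 637 and 469 CPM in hatched ICM, and its fall by 2.43 ± 0.56 (adjusted p = 0.00504) was lost without hatched ICM library 1 (adjusted p = 0.0579). CUBN, an endocytic receptor of yolk sac endoderm, had 58.7, 47.4 and 44.9 CPM in epiblast, against 1.67, 5.39 and 5.23 CPM in hatched ICM, and its adjusted p of 0.0367 reached 0.119 when a library was left out and held in none of these fits. GATA4, PDGFRA, HNF4A, FOXA2 and DAB2 did not pass, with means of 21.8, 291, 23.9, 77 and 673 CPM in epiblast and 46.2, 535, 53.8, 114 and 659 CPM in hatched ICM.

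Secreted proteins of yolk sac endoderm and liver were among the largest rises. Of 19 listed genes, 13 had a symbol and 11 were tested, and 5 rose, none fell and 6 did not pass, with a median log2 fold change of 4.88. Among all genes tested, 7.22% rose. Leaving out hatched ICM library 1 left 4 rises in the list. Their summed level was 10250, 10590 and 10880 CPM in epiblast, against 3208, 420 and 173 CPM in hatched ICM, which was between 1.04% and 1.11% of the counts of an epiblast library. SERPINA1 (ENSCJAG00000009782), a protease inhibitor secreted by endoderm, had 2557, 2730 and 2790 CPM in epiblast, against 0.289, 0.473 and 0 CPM in hatched ICM. Its log2 change was 13.36 ± 1.2 (adjusted p = 0.000273). TF, transferrin, had 5564, 5587 and 5898 CPM in epiblast, against 83.6, 85.5 and 15.9 CPM in hatched ICM, and its rise of 6.53 ± 1.77 (adjusted p = 0.0154) was lost without hatched ICM library 1 or 3 (adjusted p of up to 0.0678). APOB, the structural apolipoprotein of secreted lipoproteins, had 513, 474 and 458 CPM in epiblast, against 0.062, 7.36 and 1.34 CPM in hatched ICM (log2 change 7.36 ± 1.48, adjusted p = 0.00195).

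Fibrinogen chains divided. FGA had 50.8, 31.4 and 37.6 CPM and FGB had 2.4, 9.42 and 5.64 CPM in epiblast, and neither had a count in hatched ICM, so they were at least 2090-fold and at least 305-fold higher in epiblast (adjusted p = 0.00338 and 0.0139), though FGB did not pass with DESeq2 (adjusted p = 0.0663). FGG, the third chain, had 34.8, 46.1 and 28.4 CPM in epiblast, against 0.454, 37.7 and 7.55 CPM in hatched ICM and did not pass. APOA1 had 72.3, 74.2 and 62.7 CPM in epiblast, against 2805, 182 and 62.7 CPM in hatched ICM, with no pass either (adjusted p = 0.149). VTN, at 992 ± 49.3 CPM in epiblast and 33.7 ± 21.1 CPM in hatched ICM (SD, n = 3 each), missed the threshold (adjusted p = 0.153). Albumin (ALB) and alpha-fetoprotein (AFP), main products of liver and yolk sac endoderm, had no count in the 3 epiblast or the 3 hatched ICM libraries, where the floor of 3 counts is 0.0181 and 0.0191 CPM.

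Mesenchymal genes were the other group with the largest rises. Of 24 listed genes, 17 had a symbol and 14 were tested, and 6 rose, none fell and 8 did not pass, with a median log2 fold change of 6.17. Among all genes tested, 7.22% rose. All 14 genes of the list lay above the 15 ICM libraries, against 17.4% of all genes. Without hatched ICM library 1, 5 rises were left. The summed level was 5634, 5792 and 5831 CPM in epiblast, against 406.5, 657 and 1425 CPM in hatched ICM. DCN (ENSCJAG00000019513), decorin, a proteoglycan that binds collagen fibrils, had 472, 505 and 522 CPM in epiblast and no count in any ICM or morula library. It was at least 26200-fold higher than in hatched ICM (adjusted p = 4.63e-05), the largest bound among the 12 largest rises. COL3A1 and COL5A2, fibrillar collagens, and POSTN, a matrix protein, also had no count in hatched ICM. COL3A1 and COL5A2 averaged 234 ± 18.8 and 62.3 ± 5.28 CPM in epiblast (SD, n = 3 each), and POSTN had 208, 249 and 224 CPM.

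PDGFRB, a growth factor receptor of mesenchyme and pericytes, had 88, 80.5 and 66.5 CPM in epiblast, against 0, 0.0364 and 0 CPM in hatched ICM. With 2 counts in all of hatched ICM, its ratio was 6150 with a counting interval of 1700 to 50800 (95%, exact, adjusted p = 0.000337). SNAI2, a factor of cells that leave an epithelium, had 43.8, 31.4 and 36.7 CPM in epiblast, against 0, 0.218 and 0 CPM in hatched ICM, and its adjusted p of 0.0339 held only without hatched ICM library 2 and otherwise reached 0.102, and it was 0.0774 with DESeq2. VIM, an intermediate filament of mesenchyme and many cultured cells, had 2216, 2231 and 2438 CPM in epiblast, against 26.3, 357 and 1212 CPM in hatched ICM and did not pass (adjusted p = 0.299). FN1 and COL1A1 averaged 1254 and 99.2 CPM in epiblast and 148 and 0.659 CPM in hatched ICM without passing. PRRX1, a factor of limb and cranial mesenchyme, had no count in either group.

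Markers of further tissues were examined in the same way, and over all genes tested 7.22% rose and 12.7% fell. Of 8 tested genes of primitive streak and mesoderm, of 13 listed, CER1 alone rose. TBXT, the factor that marks the streak, had 15.4, 15.3 and 8.83 CPM in epiblast, against 0, 1.33 and 0 CPM in hatched ICM, and EOMES had 36.5, 47.9 and 48.2 CPM in epiblast, against 0.0413, 3.06 and 6.81 CPM in hatched ICM. Neither passed (adjusted p = 0.214 and 0.324). Amnion gave 4 tested genes of 12 listed, of which VTCN1 rose, with 15.6, 12.2 and 12.9 CPM in epiblast and no count in hatched ICM, at least 708-fold (adjusted p = 0.0194). Its call was lost without any 1 of the hatched ICM libraries (adjusted p of up to 0.0619). The median of the amnion list was -4.62, or 0.06 without hatched ICM library 1, where 5 genes were tested.

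Trophoblast genes summed to 270, 258 and 258 CPM in epiblast, against 2909, 289 and 624 CPM in hatched ICM. Of 14 tested genes of 23 listed, 2 fell, namely GATA2 (1.49, 7.3 and 6.65 CPM in epiblast, against 1065, 96.4 and 102 CPM in hatched ICM, adjusted p = 0.0194) and KRT7 (9.48, 4.89 and 9.42 CPM in epiblast, against 249, 113 and 393 CPM in hatched ICM, adjusted p = 0.0229). Both calls were lost without each epiblast library in turn, and also without hatched ICM library 1 for GATA2 (adjusted p of up to 0.1) and library 3 for KRT7 (up to 0.0949). The median log2 fold change of the list was -0.3, or 1.99 without hatched ICM library 1. The 4 trophoblast genes that lay above all 15 ICM libraries in epiblast, as 17.4% of all genes did, did not pass. The 2 falls among 14 tested genes were near the 12.7% of all genes.

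Endothelial genes summed to 947, 954 and 907 CPM in epiblast, against 197, 308 and 322 CPM in hatched ICM. KDR, the VEGF receptor of endothelium and early mesoderm, made up most of this, with 550, 556 and 506 CPM in epiblast, against 2.85, 0.182 and 0 CPM in hatched ICM (log2 change 9.06 ± 2.73, adjusted p = 0.0268). Its call held only without hatched ICM library 1 and otherwise reached 0.0865. CDH5, the cadherin that defines endothelium, had 0.0364, 0 and 0 CPM in epiblast, against 0.0207, 1.84 and 0.949 CPM in hatched ICM, and fell (adjusted p = 0.0498, lost in each fit without a library but that without hatched ICM library 1, up to 0.157). FLT1, another VEGF receptor, passed at 0.0388 and lost its call without any 1 library (up to 0.118). Its level in primed ESCs was 257 to 343 CPM, above the 37.1 to 50 CPM of epiblast.

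Blood and immune genes summed to 52.3, 81.4 and 89.5 CPM in epiblast, against 0.0433, 3.23 and 15 CPM in hatched ICM. Most of this was CD163, a scavenger receptor of macrophages, with 34.3, 62.8 and 68.5 CPM in epiblast and no count in any of the 15 ICM libraries. It was at least 2890-fold higher than in hatched ICM (adjusted p = 0.00215). PTPRC, which encodes the leukocyte marker CD45, and CSF1R, the macrophage growth factor receptor, had means of 7.64 and 6.86 CPM in epiblast and 0.0745 and 0.322 CPM in hatched ICM and did not pass (adjusted p = 0.0531 and 0.263). Endometrial genes summed to 7.18, 12 and 15.1 CPM in epiblast, against 82.6, 1.09 and 4.73 CPM in hatched ICM. Of the steroid receptors, ESR1 had no count in either group and PGR had none in epiblast. Of these genes LTF rose (1.27, 3.76 and 7.02 CPM in epiblast and no count in hatched ICM, adjusted p = 0.0233) and kept its call only without epiblast library 1 (otherwise up to 0.0693). Of 6 neural genes tested NCAM1 rose (72.7, 99.7 and 79.1 CPM in epiblast, against 0.0413, 0.182 and 0 CPM in hatched ICM, adjusted p = 0.00147), and of 6 germ cell genes DDX4 and TFAP2C fell.

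**Figure D4:**
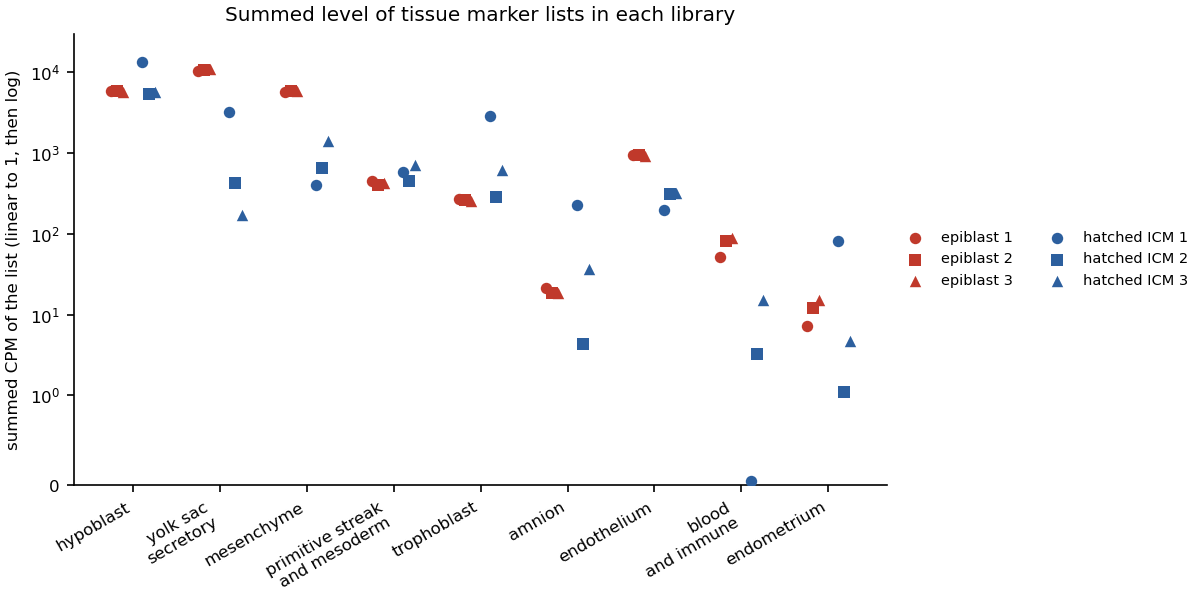
Summed CPM (linear to 1, logarithmic above) of 9 lists of tissue markers in the 3 epiblast libraries (red) and the 3 hatched ICM libraries (blue), with a symbol for each library number. The epiblast libraries lie above hatched ICM for yolk sac secretory, mesenchyme, endothelium, and blood and immune genes, while hatched ICM library 1 lies highest for hypoblast, trophoblast, amnion and endometrium genes.

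To set rises also found in primed ESC cultures beside the rest, each higher gene was described by its level in primed ESCs. The mean CPM of the 6 DSY127 and No.40 libraries was divided by the mean CPM of epiblast. A level in culture does not show which cell holds the RNA in the embryo. Nor does it show that pluripotent cells hold it in culture. The summed mesenchymal list ran from 3687 to 9277 CPM in DSY127 and from 2105 to 13570 CPM in No.40. Of the 1222 higher genes, 724 (59.2%) reached at least 0.5 of the epiblast level in primed ESCs, 412 (33.7%) lay from 1/16 up to 0.5, and 86 (7.04%) lay under 1/16. Over 16462 tested genes with a count in epiblast, the shares were 80.2%, 17.4% and 2.35%. For the 2064 lower genes with a count in epiblast they were 94%, 5.43% and 0.533%. The epiblast level that picked the genes is also the divisor, which by itself pushes the ratios of higher genes down and those of lower genes up. The difference between these shares therefore cannot show other tissue. The 3 epiblast libraries stood above all 15 ICM libraries for 576 of the 724, 362 of the 412 and 83 of the 86. With the DSY-c2 and N40 primed Tg libraries in place of DSY127 and No.40, 722 and 113 genes fell in the first and last class.

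Of the rises, 2 of 3 core pluripotency genes and 3 of 4 DNA methylation genes reached 0.5 of the epiblast level in primed ESCs. Of the postimplantation epiblast genes that rose, 0 of 4 did, and of all higher genes 59.2% did. The ratio was 1.13 for SOX2, 2.12 for LIN28A and 0.618 for DNMT3B, and outside these lists 0.536 for FGFR1 and 0.888 for CDH1. ZSCAN10, SALL2 and OTX2 lay lower, at 0.245, 0.279 and 0.206. CYTL1, although listed with the postimplantation epiblast, had 1.72 to 2.8 CPM in the 6 primed ESC libraries and a ratio of 0.00705. Of the rises, 3 of 4 glycolysis and 4 of 6 cell cycle genes reached 0.5, against 59.2% of all higher genes. The ratios were 0.728 for PKM, 1.12 for MKI67 and 1.13 for CCND2.

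Secretory genes lay at the other end. SERPINA1 had 0 to 5.93 CPM in the 6 primed ESC libraries, a ratio of 0.000512. PLG, plasminogen, had 85.4, 85.4 and 71.5 CPM in epiblast and no count in hatched ICM, at least 4230-fold higher (adjusted p = 0.000442), and at most 0.0332 CPM in a primed ESC library. F5, coagulation factor V, SERPINA6, the corticosteroid-binding globulin, and ADAMTS13, which cleaves von Willebrand factor, averaged 92 ± 13.7, 78.2 ± 5.69 and 49.9 ± 6.8 CPM in epiblast (SD, n = 3 each) with no count in hatched ICM. Their ESC ratios were 0.00207, 0.00045 and 0.0228. With CD163 and FGA these are the 6 largest rises of the lowest class, and 5 of them encode plasma proteins or factors of coagulation while CD163 is a macrophage receptor. APOB and TF, at ratios of 0.0639 and 0.0847, lay just above the limit of that class, with means of 32.1 and 502 CPM in the 6 primed ESC libraries.

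Mesenchymal genes were divided by this measure, as were all higher genes, of which 59.2% reached at least 0.5. Of the 6 that rose, COL3A1, POSTN, COL5A2 and PDGFRB reached at least 0.5 of the epiblast level (ratios of 0.682, 0.526, 1.75 and 0.773), and DCN and SNAI2 did not (0.0684 and 0.168). The ESC libraries varied widely. POSTN ranged from 14.5 to 318 CPM and DCN from 0.0659 to 137.5 CPM over the 6 DSY127 and No.40 libraries. The summed mesenchymal list had medians of 7334 and 7293 CPM in DSY127 and No.40, 2555 CPM in DSY-c2 primed Tg and 1066 CPM in N40 primed Tg, against which the epiblast libraries had 5634 to 5831 CPM. The 6 largest rises of the class at 0.5 or more were COL3A1, POSTN, COL5A2, GUCY1A1 (a subunit of soluble guanylate cyclase), CER1 and CDH11 (a cadherin of mesenchyme). CER1 also varied in culture, from 10.5 to 1038 CPM. The secretory list summed to medians of 660 to 1023 CPM in the 4 primed groups, all below the 10250 to 10880 CPM of epiblast. The share of mesenchyme or of endoderm in the epiblast libraries was not tested, since the libraries are of bulk RNA.

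**Figure D5:**
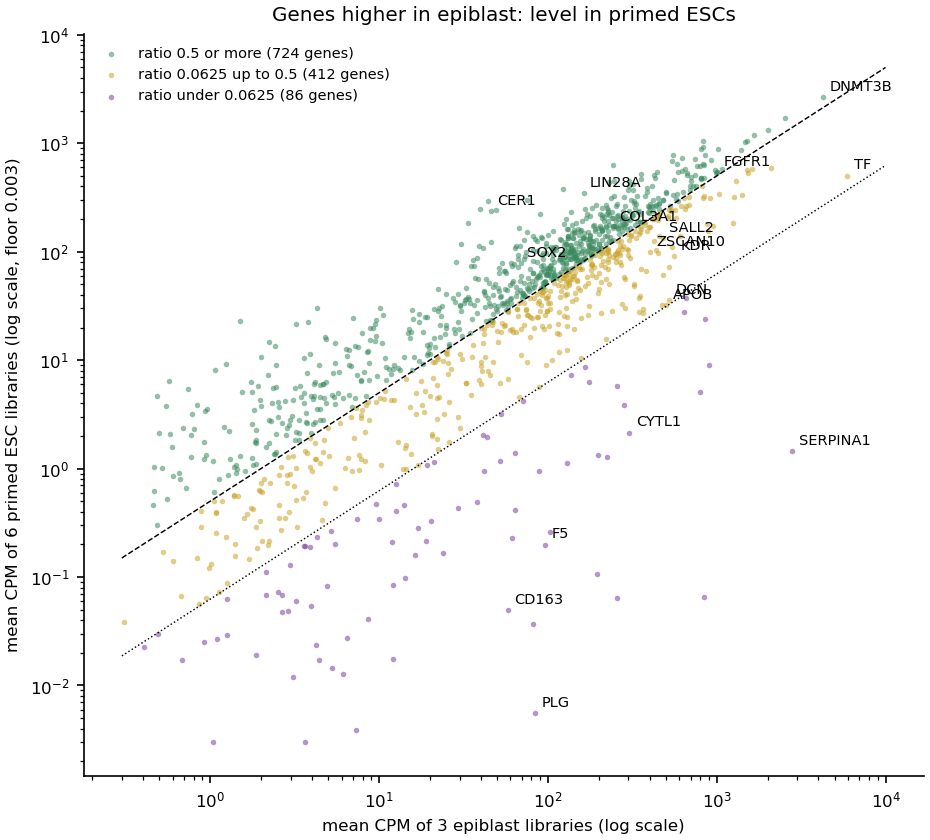
Mean CPM in the 6 DSY127 and No.40 primed ESC libraries (vertical, logarithmic, drawn no lower than 0.003) against mean CPM in the 3 epiblast libraries (horizontal, logarithmic) for the 1222 genes higher in epiblast, with lines at ratios of 0.5 (dashed) and 1/16 (dotted). The 724 green genes lie on or above the dashed line with DNMT3B, SOX2 and LIN28A among them, and the 86 purple genes lie below the dotted line with SERPINA1, PLG, F5, CD163 and CYTL1 among them.

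The remaining genes of the 12 largest rises, all without a count in hatched ICM, were PAMR1, CA14, OLFML2B, JAKMIP2 and CD248. PAMR1, a secreted protein with a protease-like domain, had 354, 334 and 367 CPM in epiblast and was at least 18400-fold higher (adjusted p = 6.84e-05). CA14, a membrane-bound carbonic anhydrase, and JAKMIP2, a coiled-coil protein, averaged 122 ± 7.53 and 85 ± 4.64 CPM in epiblast (SD, n = 3 each). OLFML2B, an olfactomedin-like matrix protein, and CD248, a surface protein of stromal cells and pericytes, had 84.6, 113 and 106 CPM and 56.1, 71 and 67.7 CPM in epiblast. The calls of all 12 held in each fit that left out 1 library.

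The 12 largest falls were in genes with few or no counts in epiblast, among them transporters and enzymes. ABCB4, a phospholipid transporter best known from bile canaliculi, had no count in epiblast, against 152, 198.5 and 215 CPM in hatched ICM, at least 10400-fold lower (adjusted p = 0.000255). ALPP, known as placental alkaline phosphatase, had no count in epiblast, against 39.3, 141 and 24 CPM in hatched ICM (adjusted p = 1.54e-05). UNC93A, a transporter-like membrane protein, had 0, 0.219 and 0 CPM in epiblast, against 288, 254 and 220 CPM in hatched ICM (log2 change -11.73 ± 1.06, adjusted p = 4.07e-06). BECN2, a beclin family autophagy gene, and NAA11, an N-terminal acetyltransferase subunit, had no count in epiblast, against 6.85 to 18.7 and 8.58 to 12.9 CPM in hatched ICM. CAPN13, a calpain, and SLC47A1, a transporter of organic cations, completed the falls without a count in epiblast whose calls held in each fit that left out 1 library.

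Some of these falls lost their calls without hatched ICM library 1 and without each epiblast library in turn. DLX3, a homeobox factor of placenta and skin, had none in epiblast, against 102, 0.0364 and 4.13 CPM in hatched ICM. Its adjusted p of 0.042 reached 0.132 when a library was left out. SLC17A2, a solute carrier, had none in epiblast, against 59.6, 6.05 and 3.91 CPM in hatched ICM. SLC17A2 kept its call only without hatched ICM library 2 or 3, DLX3 only without library 2, and MTMR11 lost its call without each epiblast library in turn. GPA1 had 0, 0.0365 and 0.231 CPM in epiblast, against 2261, 28 and 19.6 CPM in hatched ICM (log2 change -13.03, adjusted p = 0.00138), and without hatched ICM library 1 its log2 change was -7.93 (adjusted p = 0.0213).

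Genes of the stress response were also lower where they passed, with 3 of 4 tested genes of 13 listed. Among all genes tested, 12.7% fell. FOS, an immediate early gene, had 17.5, 21.5 and 23.4 CPM in epiblast, against 35.6, 48.1 and 478 CPM in hatched ICM (adjusted p = 0.0138). Hatched ICM library 3 was the highest of all 15 ICM libraries, and the call was lost without it and without each epiblast library in turn (up to 0.346). DDIT3 and TRIB3, targets of the integrated stress response, were highest in hatched ICM library 1, at 55.8 and 313 CPM, and lost their calls without it (up to 0.121 and 0.129 over the fits without a library). DDIT3 also lost its call without epiblast library 1 or 2, and TRIB3 kept its call only without hatched ICM library 2.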

How the data were processed

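Raw counts per gene, 2 run columns for each library, were deposited for 39 libraries, and the run columns were summed; 6 columns matched no sample and were not used. Per the labels' protocols, RNA was extracted with RNeasy Mini and libraries were made with a stranded poly(A)+ TruSeq kit. The submitters' processing notes name Trim Galore 0.4.0, STAR 2.5.3a and featureCounts 1.5.2; a genome build and its gene models were not named there, so no coordinates or sequences are printed. Of 30811 gene IDs, 12660 (41.1%) had a symbol. Even numbers made up 65% of deposited counts between 1 and 49 but 50.8% of those at 500 and above, as when both mates of a pair are counted, so intervals and floors, which cover counting error only, are too narrow.

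edgeR 4.0.16 (R 4.3.3, limma 3.58.1) was fitted to all 21 embryo libraries by stage, with filterByExpr, TMM, robust quasi-likelihood and Benjamini-Hochberg adjustment over 16929 genes. The SE is the log2 fold change over the root of F. CPM of embryo libraries are on the TMM scale of those 21, and CPM of ESCs, list sums and ESC ratios on that of all 39. In a group without a count, 3 counts over the group served as the floor. DESeq2 1.42.0, other filters, a replicate block and leaving out each library were alternatives. Same-numbered epiblast and hatched ICM libraries did not deviate together (r of -0.00527, 0.00729 and 0.00179). Genes named are the 12 largest rises and falls with a symbol, a group mean of 10 CPM or more on the higher side and no overlap of groups, the 6 largest rises of the top and bottom ESC class, and list members. The members and lists were chosen with earlier results of these data known. Some genes counted in these lists are not reported here by name.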

Additional observations from a re-analysis of the deposited data

How the results depend on the processing

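The main counts were 1222 higher and 2150 lower genes, of which 724 higher genes reached at least 0.5 and 86 lay under 1/16 of the epiblast level in primed ESCs. No named gene that passed was reversed by an alternative that gave it a value, but the balance of calls moved. DESeq2 as the test gave 2025 higher and 2465 lower genes, with 1354 in the upper ESC class. A fit to the 6 libraries alone gave 2622 higher and 2609 lower genes (50.1% higher, against 36.2%), with 1664 and 139 in the ESC classes. A test against a fold of 2 gave 430 higher and 996 lower genes, with 198 and 51 in the ESC classes. Leaving out 1 library gave 562 to 777 higher, 1317 to 2107 lower, 316 to 466 upper class and 39 to 49 lower class genes. Without the filter on low counts, 884 genes were higher and 1981 lower. A replicate block gave 1108 higher, 1997 lower, 670 upper class and 72 lower class genes, but the shared numbers did not pair the libraries. Of 124 named genes that passed, 89 to 107 did so without 1 library, 84 against a fold of 2, 114 under the block, 124 with counts halved, 114 of 119 with an adjusted p from DESeq2, and 117 of 122 tested in the fit to 6 libraries. The median of the HOX genes turned to 0.15 with DESeq2 size factors, against -0.07, and that of endometrial genes to 0.12, against -0.09 (0.81 with genes at 0 at their bound). Without hatched ICM library 1 the medians were 1.99 for trophoblast, against -0.3, 0.06 for amnion, against -4.62, 2.69 for endometrium and 0.46 for HOX genes. The causes were not tested. Genes near 1 count in 1 group are limited by depth.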

Other observations

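Families of genes chosen after their values were seen are given here as values only. Among all genes tested, 12.7% fell. Of 50 mitochondrial ribosomal protein genes tested, 41 fell in epiblast with a median log2 fold change of -2.09, and their summed level was 1569, 1670 and 1681 CPM in epiblast, against 5214, 4350 and 6947 CPM in hatched ICM. Of 25 proteasome subunits tested, 21 fell, with a median of -1.88. Of 29 subunits and assembly factors of complex I, 23 fell, with a median of -2.29. Primed ESCs had 28300 to 44300 CPM of cytosolic ribosomal protein genes, more than epiblast, and the morula had 26110 to 32760 CPM.

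Matrix, guidance and other families are given likewise. Among all genes tested, 7.22% rose, 12.7% fell and 17.4% lay above all 15 ICM libraries. Of 40 collagens tested, 6 rose, 34 did not pass and 23 lay above all 15 ICM libraries, with a median log2 fold change of 5.08. Of 21 ADAMTS proteases 7 rose, or 4 without hatched ICM library 1, and of 18 semaphorins 4 rose, or 3 without it. Of 16 lysine demethylases 6 rose, with a median of 1.72. Of 17 HOX genes tested 3 rose and 1 fell, while 19.9% of all genes were called in either direction.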
